A study of Monascus purpureus with 6 samples.

Results

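Aminoacyl-tRNA synthetases join each amino acid to its tRNA, so they set the supply of charged tRNA for translation. In the mycelia of *M. purpureus*, 130 of the 20381 tested unigenes were picked by annotation words: the KEGG or Pfam description of a unigene contained tRNA synthetase, and its FPKM averaged at least 0.1 over the 6 libraries. The words were found in 137 unigenes of the 24261 in the assembly, but 6 of these had no FPKM listed and 1 averaged 0.033 FPKM, whereas the lowest one kept averaged 0.223 FPKM. The 130 unigenes belonged to 108 assembled genes. KEGG words picked 127 of them and Pfam words 47, with 44 picked by both.

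The libraries were made from mycelia of the isolated WT strain MP2022 in fermentation medium, all sampled at day 1. The taurine group (3 libraries) was given 4 g/L taurine, and the control group (3 libraries) was not. Both groups stand for a single strain at a single time. The study's methods give its assays as made in triplicate, but whether each library came from its own culture is not given in the sources used here, so the p-values measure the spread between these libraries, which may be technical. Groups were read from the names of the deposited columns, and each direction below holds as far as those names do. FPKM is a share of a library, so that less RNA per mycelium cannot be told apart from a lower share of the same RNA.

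A synthetase first activates its amino acid with ATP and then passes it to the end of the matching tRNA. The enzymes fall into structural class I and class II by the fold of the catalytic domain. The nucleus also encodes the enzymes that work in mitochondria. Some amino acids have a separate mitochondrial gene, while in *S. cerevisiae* 1 gene serves both compartments for alanine, glycine, histidine and valine. In *S. cerevisiae*, uncharged tRNA also activates the kinase GCN2, which raises translation of the transcription factor GCN4 and, through it, of amino acid biosynthesis genes. Taurine itself is an amino sulfonic acid that is not built into proteins by the ribosome.

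The label of the list held for 47 of the 130 unigenes only. These 47 had a tRNA synthetase or anticodon-binding domain in Pfam or a tRNA ligase or synthetase name in NR, the non-redundant protein database, and came from 40 assembled genes. They covered all 20 amino acids and were 1433 to 4666 bases long. This split used annotation words alone and was made after the members were known. Another 3 were relatives of the enzymes. The unigene DN419_c0_g1_i2-S3A (every identifier here carries the prefix TRINITY_ in the table) was annotated as ergosteryl-3beta-O-L-aspartate synthase, which moves aspartate from its tRNA to ergosterol in fungi. DN9295_c0_g1_i1-C1A and DN6861_c0_g1_i1-S3A were annotated as deacylases of misacylated tRNA(Ala), which remove a wrong amino acid.

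The other 80 unigenes carried the words in KEGG alone and showed no synthetase domain. Lysine words accounted for 46 of them, cysteine words for 10 and aspartate words for 9. Of the lysine and cysteine ones, 33 had a phosphotransferase or kinase name in Pfam or NR. Of the 9 with aspartate words, 6 had a haloacid dehalogenase domain, and 4 of the 6 with isoleucine words had a bacteriorhodopsin-like domain. No Pfam domain was listed for 28 of the 80, and 18 were shorter than 500 bases. Their median level was 1.16 FPKM, against 57.2 FPKM for the 47 annotated synthetases.

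Among these 80 unigenes, 2 carried most of the FPKM. DN8718_c0_g1_i1-S1A, a haloacid dehalogenase-like hydrolase, had 954, 727 and 996 FPKM with taurine, against 647, 958 and 872 FPKM in control. DN76_c0_g1_i2-C2A, with a bacteriorhodopsin-like domain, had 185, 159 and 207 FPKM with taurine, against 90.3, 646 and 191 FPKM in control. Control 2 was far above the other libraries in the second unigene, and both were named after their values were seen. The 80 unigenes together took 21.7% to 36.9% of the FPKM of the list, and the highest share was that of control 2. Sums are therefore given for the 47 annotated synthetases unless stated otherwise.

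**Figure D1:**
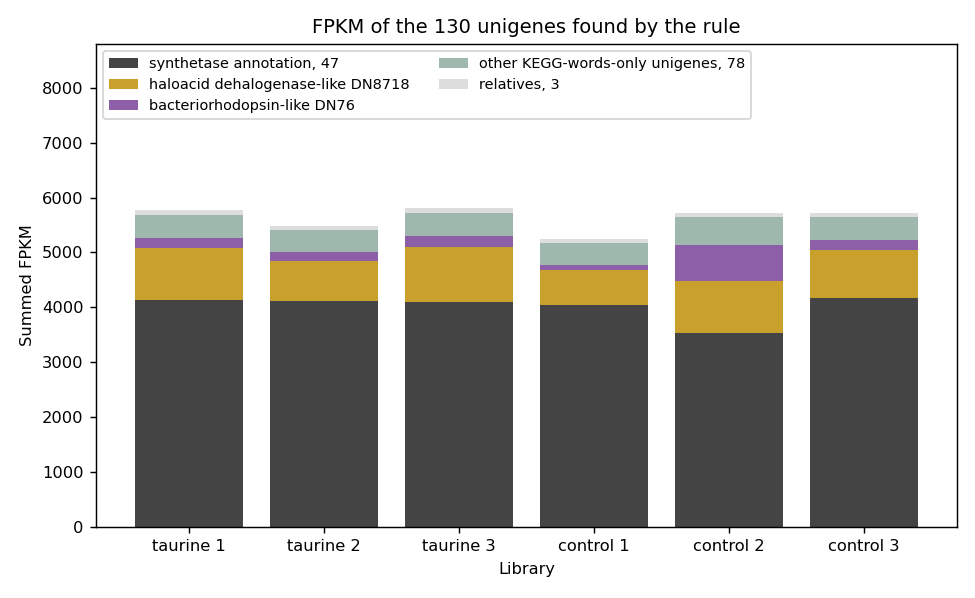
Summed FPKM of the 130 unigenes in each library, taurine 1 to 3 on the left and control 1 to 3 on the right, stacked by annotation. The 47 annotated synthetases (bottom, dark) summed to 4104 to 4126 FPKM with taurine and to 4036, 3524 and 4166 FPKM in control, and the bacteriorhodopsin-like unigene reached 646 FPKM in control 2.

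The FPKM sums of the libraries were alike, but FPKM is already scaled to library size, so these sums do not measure it. FPKM over all unigenes summed to 831359 to 865009 with taurine and to 797244 to 863693 in control, and control 2 had the lowest sum. The table holds no read counts. The step between low FPKM values corresponded to roughly 19450000 to 20350000 fragments per library, but only 46.2% to 51.4% of the low values came within 0.1 of a whole fragment, against 20% for evenly spread values, so that depth is a rough estimate. By this estimate, the seryl-tRNA synthetase unigene rested on 7571 to 10649 fragments in a library.

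No synthetase unigene passed the test between taurine and control. In the limma fit on log2(FPKM + 1), 0 of the 130 had an adjusted p of at most 0.05, where 0.0393% of all tested unigenes did, and the adjusted p-values of the 130 ran from 0.759 to 0.999. At an unadjusted p under 0.05, 1 of the 130 was higher with taurine and 3 were lower. Among all tested unigenes, 1.63% were higher and 1.03% lower at that p, so that the share of the list was near the background. The median log2 fold change was 0.026 over the 130 and 0.022 over all tested unigenes. The taurine values lay above all control values in 2 of the 130, against 3.78% of all tested unigenes, and below them in 4, against 2.62%. The count of 4 at that p was 2 without taurine 1, 2 without taurine 3, 13 with sample quality weights and 0 with isoforms summed to genes, while the count after adjustment was 0 in each. The share of all tested unigenes at that p is not given for these settings. The changed counts, the 13 included, therefore have no background and are not read as a trait of the list.

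The fitted fold changes of the 47 annotated synthetases were small. Their median log2 fold change was 0.062, and 39 of the 47 lay within 0.2 of 0 on the log2 scale. A value above 0 was fitted for 38 and a value below 0 for 9. For all tested unigenes, 54.2% had a value above 0, but most of these were at lower levels. At a mean of at least 10 FPKM, 3891 of 5904 tested unigenes and 34 of 40 annotated synthetases were above 0. The median log2 fold changes at that level were 0.040 and 0.071. Without control 2, the fitted value was above 0 for 25 of the 47, and their median was 0.0038. Leaving out each of the other libraries gave 36 to 39 above 0. The count was 25 with sample quality weights as well. The count of 38 thus rested on control 2, while 20 of the 47 had a value above 0, and 4 a value below 0, with all libraries and with each one left out.

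**Figure D2:**
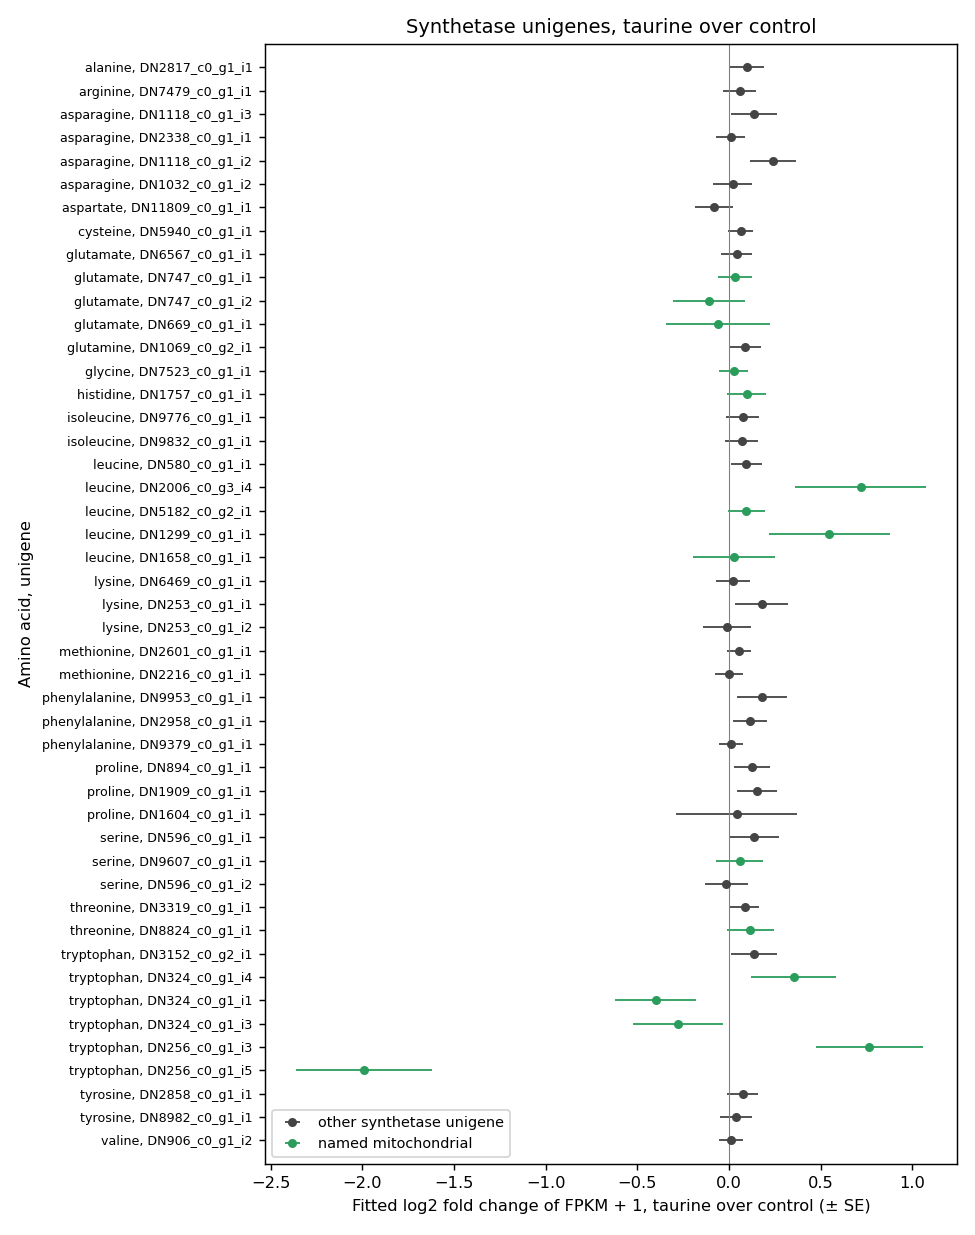
Fitted log2 fold change of FPKM + 1, taurine over control (horizontal axis), with its standard error, for the 47 annotated synthetase unigenes ordered by amino acid, with the 16 named mitochondrial in green. Most lie within 0.2 of 0, and the widest values belong to mitochondrial leucine and tryptophan unigenes, from -1.99 to 0.77.

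Summed by amino acid, the enzymes of phenylalanine, serine and tyrosine had the highest levels. Their sums averaged 401, 381 and 343 FPKM over the 6 libraries, with lysine at 315 and glutamate at 275 FPKM. Cysteine was the lowest at 48.3 FPKM, below glycine at 87.5 and glutamine at 94.2 FPKM. Phenylalanine and the other enzymes of several unigenes are counted here with every subunit and isoform. The order was coarse. Of the 19 neighbouring pairs in it, 15 had ranges over the libraries that overlapped, and only methionine over proline, arginine over isoleucine, valine over glutamine and glycine over cysteine stood apart.

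With taurine, the summed level was higher than in control for 19 of the 20 amino acids, aspartate being the exception. The log2 ratios of the group means ran from -0.089 for aspartate to 0.20 for leucine. The groups overlapped for 19 amino acids. For phenylalanine, the sums were 413, 423 and 419.7 FPKM with taurine, against 409.5, 333 and 408 FPKM in control, and these did not overlap. Without control 2, 12 of the 20 amino acids were higher with taurine, and the log2 ratio of leucine was 0.089 and that of phenylalanine 0.034. These ratios describe the libraries and were not tested, since a sum over chosen unigenes gets no p.

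**Figure D3:**
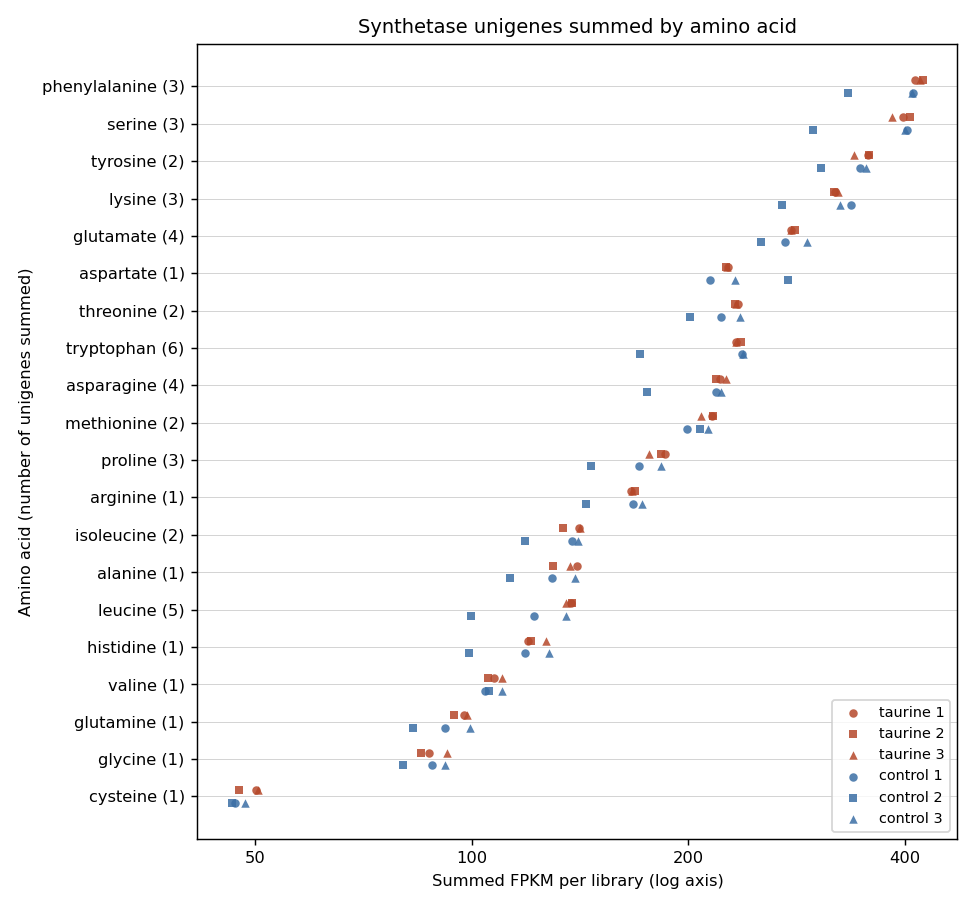
Summed FPKM of the annotated synthetases for each amino acid (log axis), with taurine libraries in red above control libraries in blue, and the number of unigenes summed in brackets. Levels span from about 48 FPKM for cysteine to about 400 for phenylalanine, and control 2 (blue squares) lies left of the other 5 libraries for 17 of the 20 amino acids.

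Control 2 stood apart from the other libraries in nearly every enzyme. It was the lowest of the 6 libraries for 17 of the 20 amino acids and for 35 of the 47 unigenes. Among annotated synthetases with a mean of at least 10 FPKM, it was the lowest in 32 of 40, which is 80%, where it was the lowest in 50.5% of all tested unigenes at that level. In control 2, the amino acid sums lay at a median of -0.23 on the log2 scale relative to the mean of the other 5 libraries. The corresponding medians were between -0.0082 and 0.078 in the other libraries. Among these 5, the sum of every amino acid varied by no more than 1.13-fold. Part of the shift of control 2 was common to other unigenes. Taken per unigene on log2(FPKM + 1), its median deviation was -0.21 over the 47 annotated synthetases. Over all tested unigenes with a mean of at least 10 FPKM it was -0.13.

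The position of control 2 was not common to every enzyme. In aspartate, control 2 was the highest library, at 275 FPKM against 215 to 232 FPKM in the other 5. Valine and methionine sums of control 2 lay inside the range of the other libraries. The share of the 47 annotated synthetases in all FPKM was 0.490%, 0.476% and 0.494% with taurine, against 0.467%, 0.442% and 0.488% in control, so that control 2 was also lowest after its smaller FPKM sum was taken into account. Why control 2 lay lower was not tested.

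**Figure D4:**
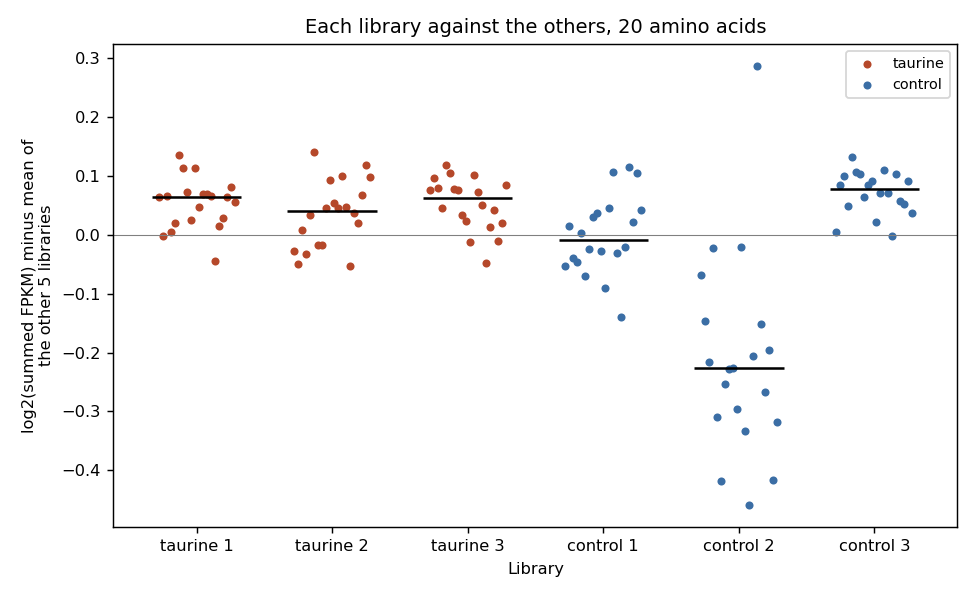
Each dot is an amino acid: log2 of its summed synthetase FPKM in a library minus the mean of the other 5 libraries (vertical axis), with taurine libraries left of control libraries and the median as a black bar. The median is -0.23 in control 2 and between -0.0082 and 0.078 in the other libraries, and the lone high dot of control 2 is aspartate. Per unigene on log2(FPKM + 1), the median of control 2 was -0.13 over all tested unigenes with a mean of at least 10 FPKM.

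Class II enzymes made up the larger share of the synthetase FPKM. The 22 unigenes of 10 amino acids summed to 2345, 2343 and 2343 FPKM with taurine, against 2310.5, 1989.8 and 2364 FPKM in control. The 25 unigenes of the 10 class I amino acids summed to 1781, 1778 and 1762 FPKM with taurine, against 1726, 1534 and 1802 FPKM in control. Both sums were lowest in control 2, and the groups overlapped in both. The log2 ratio was 0.077 for class II and 0.072 for class I.

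Among class II enzymes, seryl-tRNA synthetase DN596_c0_g1_i1-C3A, named cytosolic in NR, had the highest level of all 47. It had 342, 346 and 331 FPKM with taurine, against 345, 251 and 339.8 FPKM in control (log2 fold change 0.14, SE 0.14). Aspartyl-tRNA synthetase DN11809_c0_g1_i1-C1A had 227, 226 and 226 FPKM with taurine, against 215, 275 and 232 FPKM in control (log2 fold change -0.081, SE 0.10). The taurine libraries lay inside the control range in aspartate, whereas in serine they lay close to control 1 and control 3. Lysyl-tRNA synthetase DN6469_c0_g1_i1-C1A had 225, 215 and 229 FPKM with taurine, against 236, 197 and 229 FPKM in control (log2 fold change 0.022, SE 0.093).

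The cytosolic phenylalanine enzyme is built of alpha and beta subunits. The alpha chain DN9953_c0_g1_i1-S2A, alpha by KEGG but named beta in NR, had 207, 227 and 217 FPKM with taurine, against 216, 156 and 207 FPKM in control (log2 fold change 0.18, SE 0.14). The beta chain DN2958_c0_g1_i1-S2A had 153, 143 and 148 FPKM with taurine, against 141, 122 and 149 FPKM in control (log2 fold change 0.11, SE 0.094). The alpha chain thus stood above the beta chain in every library. Their FPKM ratio was 1.35, 1.58 and 1.47 with taurine, against 1.54, 1.28 and 1.39 in control, and the groups overlapped. Another unigene with the alpha name, DN9379_c0_g1_i1-C1A, averaged 53.5 FPKM and varied little, from 52.1 to 55.1 FPKM.

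Threonyl-tRNA synthetase DN3319_c0_g1_i1-C1A had 177, 173 and 171 FPKM with taurine, against 159.7, 156 and 177 FPKM in control (log2 fold change 0.084, SE 0.077). Prolyl-tRNA synthetase DN894_c0_g1_i1-S3A, whose NR name was that of a ribose-phosphate pyrophosphokinase although Pfam listed a prolyl-tRNA synthetase domain, had 161, 161 and 151 FPKM with taurine, against 146, 129 and 160.0 FPKM in control (log2 fold change 0.13, SE 0.097). Both enzymes overlapped between the groups, and their lowest library was control 2. Asparaginyl-tRNA synthetase DN1118_c0_g1_i3-S3A had 148, 140.2 and 145 FPKM with taurine, against 143, 108 and 146 FPKM in control (log2 fold change 0.14, SE 0.13). Alanyl-tRNA synthetase DN2817_c0_g1_i1-C2A, the sole unigene for its amino acid, had 139.8, 129.8 and 137.0 FPKM with taurine, against 129, 113 and 139 FPKM in control (log2 fold change 0.096, SE 0.095).

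Glycine and histidine also had a single unigene each, and NR named both with the word mitochondrial. Histidyl-tRNA synthetase DN1757_c0_g1_i1-C1A, named cytoplasmic and mitochondrial, had 119.9, 121 and 127 FPKM with taurine, against 119, 99.1 and 128 FPKM in control (log2 fold change 0.095, SE 0.11). Glycyl-tRNA synthetase DN7523_c0_g1_i1-C2A had 87.3, 84.98 and 92.5 FPKM with taurine, against 88.2, 80.4 and 91.8 FPKM in control (log2 fold change 0.025, SE 0.080). All taurine values of histidine and 2 of the 3 of glycine lay inside the control range.

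Among class I enzymes, tyrosyl-tRNA synthetase DN2858_c0_g1_i1-C2A led, with 293, 295 and 277 FPKM with taurine, against 283, 252 and 289 FPKM in control (log2 fold change 0.073, SE 0.085). Arginyl-tRNA synthetase DN7479_c0_g1_i1-C2A had 166, 168 and 167 FPKM with taurine, against 168, 144 and 172 FPKM in control (log2 fold change 0.057, SE 0.088). Cytosolic-type tryptophanyl-tRNA synthetase DN3152_c0_g2_i1-S3A, which is not named mitochondrial, had 137, 132 and 137 FPKM with taurine, against 132, 102 and 139 FPKM in control (log2 fold change 0.14, SE 0.12). In all 3 enzymes the taurine libraries lay near control 1 and control 3.

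The enzymes of the branched-chain amino acids were at intermediate levels. Valyl-tRNA synthetase DN906_c0_g1_i2-C2A had 108, 105 and 110.1 FPKM with taurine, against 104, 106 and 110.3 FPKM in control (log2 fold change 0.010, SE 0.065). Isoleucyl-tRNA synthetase DN9776_c0_g1_i1-C2A had 103, 99.1 and 102 FPKM with taurine, against 99.9, 85.3 and 104 FPKM in control (log2 fold change 0.074, SE 0.092). Leucyl-tRNA synthetase DN580_c0_g1_i1-S2A, which NR named 2-isopropylmalate synthase although Pfam listed a class I synthetase domain, had 88.1, 81.7 and 82.7 FPKM with taurine, against 78.6, 72.6 and 85.6 FPKM in control (log2 fold change 0.094, SE 0.085). Valine was the steadiest of these, and control 2 was not its lowest library.

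Glutaminyl-tRNA synthetase DN1069_c0_g2_i1-S1A had 97.7, 94.5 and 98.5 FPKM with taurine, against 91.9, 83.0 and 99.6 FPKM in control (log2 fold change 0.086, SE 0.086). Cysteinyl-tRNA synthetase DN5940_c0_g1_i1-S3A had the lowest level of the main enzymes, at 50.2, 47.6 and 50.5 FPKM with taurine, against 46.9, 46.5 and 48.5 FPKM in control (log2 fold change 0.062, SE 0.067). Cysteine is the amino acid from which animals make taurine, and its enzyme overlapped between the groups like the others.

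In *S. cerevisiae*, the methionine and glutamate enzymes are held in a complex by the tRNA-binding cofactor Arc1. Here the glutamate enzyme lay above the methionine enzyme in every library. Glutamyl-tRNA synthetase DN6567_c0_g1_i1-C3A had 245, 252 and 249 FPKM with taurine, against 239, 224 and 263 FPKM in control (log2 fold change 0.041, SE 0.084). Methionyl-tRNA synthetase DN2601_c0_g1_i1-S2A, named mes1 in NR, had 194, 196 and 188 FPKM with taurine, against 179, 186 and 192 FPKM in control (log2 fold change 0.055, SE 0.067). The cofactor DN10954_c0_g1_i1-S1A, found by KEGG number and outside the 130, had 207, 212 and 203 FPKM with taurine, against 201, 179 and 209 FPKM in control (log2 fold change 0.081, SE 0.083). All 3 overlapped between the groups.

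Mitochondrial enzymes were at lower levels than the others. NR named 16 of the 47 annotated synthetases mitochondrial, with a median of 14.7 FPKM, against 98.8 FPKM for the other 31. This naming is incomplete, since several second unigenes of an amino acid were named hypothetical proteins. The 16 took 11.6%, 12.06% and 12.03% of the synthetase FPKM with taurine, against 12.2%, 10.8% and 11.9% in control. The share was thus lowest in control 2, and the groups overlapped. Without glycine, histidine and the threonine unigene described next, the share was 5.23%, 5.63% and 5.19% with taurine, against 5.53%, 4.43% and 5.22% in control.

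The main mitochondrial unigenes of serine, glutamate and threonine had fitted log2 fold changes of at most 0.12. Seryl-tRNA synthetase DN9607_c0_g1_i1-C2A had 38.1, 41.4 and 36.2 FPKM with taurine, against 41.5, 31.1 and 39.2 FPKM in control (log2 fold change 0.057, SE 0.13). Glutamyl-tRNA synthetase DN747_c0_g1_i1-S3A had 26.5, 24.6 and 24.0 FPKM with taurine, against 26.3, 22.5 and 24.7 FPKM in control (log2 fold change 0.031, SE 0.092). The threonine unigene DN8824_c0_g1_i1-S1A had 57.4, 59.2 and 61.4 FPKM with taurine, against 62.2, 44.9 and 58.3 FPKM in control (log2 fold change 0.12, SE 0.13). It counted as mitochondrial through its NR name, mitochondrial 54S ribosomal protein L39, while KEGG and Pfam gave a threonyl-tRNA synthetase. Control 2 was the lowest library in all 3.

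Leucine had 4 mitochondrial unigenes from 4 assembled genes. The highest, DN2006_c0_g3_i4-C1A, had 21.1, 26.9 and 23.3 FPKM with taurine, against 16.6, 7.45 and 21.7 FPKM in control (log2 fold change 0.72, SE 0.36, adjusted limma p = 0.999, exact permutation p = 0.2). DN1299_c0_g1_i1-S2A had 8.67, 10.2 and 9.92 FPKM with taurine, against 6.83, 3.38 and 10.1 FPKM in control (log2 fold change 0.55, SE 0.33, adjusted limma p = 0.999, exact permutation p = 0.3). Permutation tests here were exact and two-sided on log2(FPKM + 1). Both unigenes were lowest in control 2 and overlapped between the groups. With each library left out in turn, the log2 fold change ran from 0.30 to 1.02 for DN2006_c0_g3_i4-C1A and from 0.18 to 0.85 for DN1299_c0_g1_i1-S2A, and the lowest value of each was the one without control 2. DN5182_c0_g2_i1-C2A, with the same NR name, was steady at 18.8 to 19.5 FPKM with taurine, against 16.1 to 19.9 FPKM in control. These unigenes may share fragments, which the counting tool could have split between them.

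The clearest difference between the groups was found in tryptophan. NR named 5 unigenes of the assembled genes DN324 and DN256 as mitochondrial tryptophanyl-tRNA synthetase. Within DN256, the isoform DN256_c0_g1_i5-S1A had 0.070, 0.42 and 0.91 FPKM with taurine, against 5.88, 6.29 and 2.62 FPKM in control. All taurine libraries lay below all control libraries. Its log2 fold change was -1.99 (SE 0.37), with an unadjusted limma p of 0.00145 and an adjusted p of 0.759, so that it did not pass the test. An exact two-sided permutation test gave p = 0.1, which is the smallest p that 3 against 3 libraries allow. By the rough depth estimate, its lowest library held about 2 fragments and its highest about 197.

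The other isoform had a fold change of the opposite sign. DN256_c0_g1_i3-S1A had 11.6, 10.6 and 9.58 FPKM with taurine, against 7.81, 3.29 and 7.31 FPKM in control (log2 fold change 0.77, SE 0.29, adjusted limma p = 0.999, exact permutation p = 0.1). The groups did not overlap in this isoform either, and its log2 fold change was 0.43 without control 2. Added together, both isoforms gave 11.65, 11.01 and 10.5 FPKM with taurine, against 13.7, 9.58 and 9.93 FPKM in control. The sum overlapped fully, at a mean of 11.05 ± 0.58 FPKM with taurine and 11.07 ± 2.28 FPKM in control (SD, n = 3 each). DN256_c0_g1_i5-S1A made up 0.60%, 3.81% and 8.67% of this sum with taurine, against 43.0%, 65.7% and 26.4% in control.

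The difference thus lay in how FPKM was divided between both isoforms. The fragments of isoforms overlap, and the values of each are uncertain as far as the counting tool could split them. When isoforms were summed to genes before the fit, 0 synthetase genes had an unadjusted p under 0.05. In DN324, the share of 2 of the 3 isoforms did not overlap between the groups. The main one, DN324_c0_g1_i4-C3A, had 67.8, 73.0 and 66.0 FPKM with taurine, against 67.8, 36.3 and 62.9 FPKM in control (log2 fold change 0.35, SE 0.23, adjusted limma p = 0.999, exact permutation p = 0.3). Without control 2, its log2 fold change was 0.075. It made up 77.5% to 80.5% of the DN324 sum with taurine, against 60.6% to 73.8% in control. Log2 fold changes were -0.40 (SE 0.22) for DN324_c0_g1_i1-C3A and -0.28 (SE 0.25) for DN324_c0_g1_i3-C3A. All 5 unigenes summed to 95.9, 104.8 and 95.7 FPKM with taurine, against 105.7, 69.5 and 99.5 FPKM in control.

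**Figure D5:**
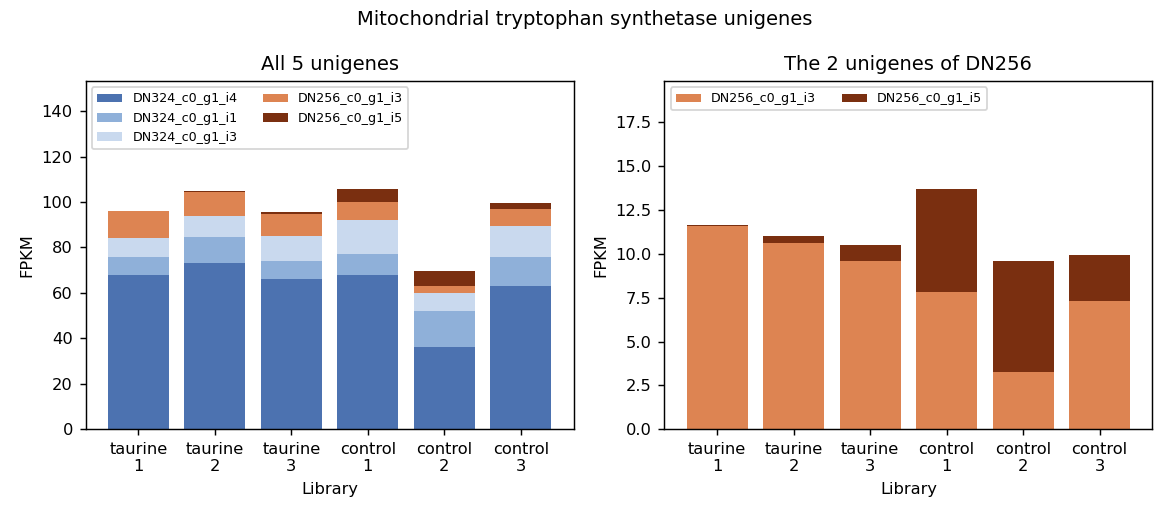
FPKM of the mitochondrial tryptophan synthetase unigenes in each library, taurine left of control, stacked by isoform, for all 5 (left) and for the 2 isoforms of DN256 (right). DN256_c0_g1_i5 (dark brown) took 0.60% to 8.67% of the DN256 sum with taurine and 26.4% to 65.7% in control, while the DN256 sum stayed between 9.58 and 13.7 FPKM.

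Of the 6 assembled genes with several annotated synthetase isoforms, DN256 and DN324 had isoforms whose share did not overlap between the groups. In the other 4 genes, the shares overlapped. How often isoform shares stand apart among all assembled genes was not computed. This count therefore has no background and is not read as a trait of synthetases. The isoform DN596_c0_g1_i2-C3A made up 4.80% to 4.94% of the pair of cytosolic serine isoforms with taurine, against 4.47% to 6.08% in control. In the lysine pair of DN253, DN253_c0_g1_i2-S3A made up 27.2% to 31.4% with taurine, against 30.3% to 33.7% in control. In the asparagine pair of DN1118, DN1118_c0_g1_i2-S3A made up 14.6% to 17.8% with taurine, against 15.1% to 16.1% in control. In the mitochondrial glutamate pair of DN747, DN747_c0_g1_i2-S3A made up 8.98% to 12.5% with taurine, against 9.51% to 13.1% in control. The ranges overlapped in these 4 pairs.

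The 3 relatives overlapped between the groups as well. The ergosteryl aspartate synthase DN419_c0_g1_i2-S3A had 70.8, 63.9 and 74.2 FPKM with taurine, against 57.2, 74.2 and 69.2 FPKM in control (log2 fold change 0.063, SE 0.12). Its highest and its lowest value were both in control. The deacylases DN9295_c0_g1_i1-C1A and DN6861_c0_g1_i1-S3A averaged 10.6 and 3.46 FPKM, and their log2 fold changes were 0.15 (SE 0.25) and 0.020 (SE 0.35).

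Among the 80 unigenes with KEGG words alone, the median log2 fold change was -0.054, and 33 were above 0. The remaining 2 unigenes with an unadjusted p under 0.05 were found here. DN1198_c0_g1_i2-S2A, with a phagosome assembly factor domain, had 4.69, 4.55 and 3.73 FPKM with taurine, against 5.75, 8.36 and 6.07 FPKM in control (log2 fold change -0.53, SE 0.18, adjusted limma p = 0.999, exact permutation p = 0.1). DN2737_c0_g1_i3-S3A, named DNA replication regulator sld2 in NR, had 0.62, 1.15 and 0.96 FPKM with taurine, against 1.91, 1.97 and 1.78 FPKM in control (log2 fold change -0.61, SE 0.22, adjusted limma p = 0.999, exact permutation p = 0.1). Taurine values lay below all control values in both. DN1198_c0_g1_i2-S2A made up 9.04% to 11.8% of its pair of isoforms with taurine, against 14.4% to 18.4% in control, and DN2737_c0_g1_i3-S3A made up 16.6% to 29.6% with taurine, against 40.2% to 60.4% in control. In the other 11 of the 13 assembled genes with several isoforms in this subset, the shares overlapped. No background over all assembled genes was computed for this count either. Neither of the named unigenes is annotated as a synthetase by domain.

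The widest fitted value in this subset rested on a single library. DN1563_c0_g1_i1-C2A, with a bacteriorhodopsin-like domain, had 0.93, 1.74 and 1.15 FPKM with taurine, against 0, 98.7 and 2.31 FPKM in control (log2 fold change -1.62, SE 1.59). Without control 2, its log2 fold change was 0.31. Control 2 was the highest library in 35 of the 80 unigenes, against 5 of the 47 annotated synthetases. It was the highest in 28.3% of all tested unigenes.

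Genes annotated with work on tRNA beside the synthetases were looked at as a list of 13 kinds, with 47 unigenes tested. They were picked by KEGG number or Pfam name and were not sorted by domain, so not every label holds. Several unigenes labelled tRNA-binding cofactor had a calcineurin-like phosphoesterase domain, and some labelled tRNA nucleotidyltransferase had a Tti2 domain. Counts and the median below are over all 47. With limma, 0 of the 47 had an adjusted p of at most 0.05. At an unadjusted p under 0.05, 4 of the 47 were higher with taurine and 0 were lower, against 1.63% higher and 1.03% lower among all tested unigenes. The median log2 fold change was 0.095 over the 47 and 0.022 over all tested unigenes. This count of 4 was 1 without taurine 1, 2 without taurine 3 and 2 without control 3. Control 2 was the lowest library in 46.8% of the 47, against 23.5% of all tested unigenes. The median of the 47 without control 2 is not given, so how far it rested on that library is open. Taurine values lay above all control values in 5 of the 47, against 3.78% of all tested unigenes. They lay below all control values in 0 of the 47, against 2.62%. The members with the highest levels were the elongation factors, which bring charged tRNA to the ribosome. Elongation factor 1-alpha DN1115_c0_g1_i1-C2A had 12079, 11526 and 12282 FPKM with taurine, against 11779, 11363 and 12312 FPKM in control (log2 fold change 0.018, SE 0.22). The mitochondrial type, elongation factor Tu DN7717_c0_g1_i1-S1A, had 468, 513 and 501 FPKM with taurine, against 528, 449 and 505 FPKM in control (log2 fold change 0.0020, SE 0.096).

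The genes of the response to uncharged tRNA overlapped between the groups. GCN4 DN5902_c0_g1_i1-C1A, whose activity is set mainly by translation in *S. cerevisiae*, had 363, 319 and 378 FPKM with taurine, against 299, 368 and 368 FPKM in control (log2 fold change 0.039, SE 0.12). The kinase GCN2 DN3266_c0_g1_i1-S2A had 17.4, 15.8 and 15.7 FPKM with taurine, against 14.7, 14.5 and 16.4 FPKM in control (log2 fold change 0.095, SE 0.097). Its partner GCN1 DN3498_c0_g1_i1-C3A averaged 73.5 FPKM with a log2 fold change of -0.0035 (SE 0.074), and GCN20 DN10807_c0_g1_i1-S2A averaged 45.4 FPKM with a log2 fold change of 0.068 (SE 0.096).

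The main unigenes of tRNA maturation and repair did not pass the test either. The tRNA nucleotidyltransferase DN1865_c0_g1_i1-C1A, which adds the CCA end, had a log2 fold change of 0.13 (SE 0.12) at a mean of 21.8 FPKM. Exportin-T DN1402_c0_g2_i5-S3A, which carries tRNA out of the nucleus, had 0.17 (SE 0.13) at 20.3 FPKM. A subunit of glutamyl-tRNA(Gln) amidotransferase, DN1585_c0_g1_i4-S3A, which makes glutaminyl-tRNA in mitochondria, had 0.099 (SE 0.13) at 57.8 FPKM. Peptidyl-tRNA hydrolase DN3315_c0_g2_i1-S1A had 80.1, 84.4 and 77.7 FPKM with taurine, against 80.8, 38.7 and 74.1 FPKM in control (log2 fold change 0.39, SE 0.27), with control 2 far below the others and a log2 fold change of 0.060 without it. Methionyl-tRNA formyltransferase DN1830_c0_g1_i1-C1A had -0.18 (SE 0.11) at 23.9 FPKM, and D-aminoacyl-tRNA deacylase DN1122_c0_g1_i2-S1A, which removes D-amino acids from tRNA, had 0.21 (SE 0.25) at 6.50 FPKM.

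The 4 unigenes with an unadjusted p under 0.05 in this list averaged 0.738 to 20.6 FPKM. DN1122_c0_g2_i1-S1A, which had the KEGG number of D-aminoacyl-tRNA deacylase but the NR name of the peptidyl-prolyl cis-trans isomerase Cpr7 and no Pfam domain, had 3.92, 4.24 and 4.09 FPKM with taurine, against 1.99, 2.41 and 2.69 FPKM in control (log2 fold change 0.60, SE 0.17, adjusted limma p = 0.999, exact permutation p = 0.1). In all 4 unigenes, the taurine values lay above all control values. DN1919_c0_g2_i1-S2A, with the KEGG number of methionyl-tRNA formyltransferase, averaged 0.738 FPKM with a log2 fold change of 0.60 (SE 0.24). Both remaining ones had the KEGG number of elongation factor 1-alpha. DN299_c0_g1_i3-C1A had 34.9, 19.5 and 21.4 FPKM with taurine, against 16.3, 18.1 and 13.2 FPKM in control (log2 fold change 0.60, SE 0.24, and 0.36 without taurine 1). It had no Pfam domain and was 292 bases long. This is shorter than the fragment lengths roughly estimated for the libraries, 302 to 332 bases, so its FPKM is uncertain. DN210_c0_g1_i4-S1A had 11.4, 12.5 and 11.5 FPKM with taurine, against 6.73, 6.81 and 11.2 FPKM in control (log2 fold change 0.51, SE 0.20).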

How the data were processed

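The FPKM of each unigene in the 6 libraries was made by the authors from a de novo assembly and was used as deposited. The submitters' processing notes name Bowtie2 2.2.5, RSEM 1.2.8 and DESeq. Their columns of group comparisons were not used. The table of gene names matched 0 unigene identifiers. Members and lists were chosen with earlier results of these data known. Log2(FPKM + 1) of all 20381 unigenes with a mean of at least 0.1 FPKM was fitted with limma 3.58.1 in R 4.3.3 (trended empirical Bayes, two-sided, Benjamini-Hochberg over all of them), taurine minus control. The script was tested on simulated data whose planted changes were far larger than most fitted here, so that test does not cover small changes. Fold changes of log2(FPKM + 1) understate changes of low unigenes. Sums over unigenes were described without a test. Named are the highest unigene per amino acid, the highest mitochondrial one, unadjusted p under 0.05, the 3 widest changes each way above 500 bases and 1 FPKM, and the highest related gene of each kind. Alternatives were the pseudocount, the minimum, rescaling, quantile normalization, quality weights, summed isoforms, a replicate block and leaving out each library.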

Additional observations from a re-analysis of the deposited data

How the results depend on the processing

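No setting gave a called unigene: 0 of the 130 and 0 of the 47 related unigenes had an adjusted p of at most 0.05 in limma under every alternative run. The count of the 130 at an unadjusted p under 0.05 was 13 with sample quality weights, 0 with isoforms summed to genes and 2 to 6 when each library was left out. Among the 47 annotated synthetases, this count was 2, against 1 with quantile normalization, 4 with quality weights, 0 with isoforms summed and 1 to 4 with a library left out. Among the related unigenes it was 2 with quantile normalization and 1 to 3 with a library left out. No share of all tested unigenes is given under these settings, so none of these counts is read as a trait of its list. Of the annotated synthetases, 25 had a value above 0 with quality weights and 25 to 39 with a library left out. With a library left out, the median log2 fold change of the 130 was 0.0095 to 0.062, and 12 to 19 amino acids had a higher sum with taurine, both over the 130 and over the annotated synthetases. The log2 ratio of the isoleucine sum over the 130 was -0.51, and it was 0.19 without control 2. Alternatives on unigenes of at least 500 bases and on the annotated synthetases alone were chosen after seeing the data.

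With the replicate number as a block, 4 of the 130 had an unadjusted p under 0.05 and 0 an adjusted p of at most 0.05, and the median log2 fold change was 0.026. Deviations of same-numbered libraries correlated at -0.022, -0.034 and -0.0085 across unigenes, and no library correlated best with its own number. No pairing by number was thus seen in these values. The labels do not say whether same-numbered libraries were handled together, and these correlations cannot decide it.

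Fitted log2 fold changes, mostly near 0 but -1.62 for DN1563_c0_g1_i1, changed sign under some settings, none of them called. With each library rescaled to the same total they were -0.0036 for DN906_c0_g1_i2 and -0.012 for DN7717_c0_g1_i1. With quantile normalization they were -0.013 for DN6469_c0_g1_i1, -0.023 for DN906_c0_g1_i2 and -0.046 for DN7717_c0_g1_i1. With quality weights they were -0.0044 for DN2817_c0_g1_i1, -0.027 for DN7479_c0_g1_i1, -0.058 for DN6567_c0_g1_i1, -0.010 for DN1069_c0_g2_i1, -0.035 for DN7523_c0_g1_i1, -0.031 for DN1757_c0_g1_i1, -0.017 for DN9776_c0_g1_i1, -0.026 for DN6469_c0_g1_i1, -0.033 for DN9607_c0_g1_i1, -0.0015 for DN3319_c0_g1_i1, -0.0020 for DN3152_c0_g2_i1, -0.020 for DN906_c0_g1_i2, -6.8e-05 for DN10954_c0_g1_i1, -0.0093 for DN5902_c0_g1_i1, -0.023 for DN1115_c0_g1_i1 and -0.039 for DN7717_c0_g1_i1. Over the libraries left out in turn, values ranged from -0.028 to 0.082 for DN747_c0_g1_i1, -0.037 to 0.035 for DN3498_c0_g1_i1, -0.065 to 0.051 for DN7717_c0_g1_i1, -0.029 to 0.066 for DN7523_c0_g1_i1, -0.0063 to 0.033 for DN906_c0_g1_i2, -0.061 to 0.11 for DN5902_c0_g1_i1, -0.010 to 0.048 for DN1115_c0_g1_i1, -0.022 to 0.11 for DN7479_c0_g1_i1, -0.00025 to 0.21 for DN1118_c0_g1_i3, -0.16 to 0.018 for DN11809_c0_g1_i1, -0.014 to 0.10 for DN6567_c0_g1_i1, -0.0088 to 0.17 for DN1757_c0_g1_i1, -0.011 to 0.13 for DN9776_c0_g1_i1, -0.059 to 0.072 for DN6469_c0_g1_i1, -0.012 to 0.22 for DN596_c0_g1_i1, -0.065 to 0.14 for DN9607_c0_g1_i1, -0.022 to 0.21 for DN8824_c0_g1_i1, -3.01 to 0.31 for DN1563_c0_g1_i1, -0.042 to 0.21 for DN1585_c0_g1_i4, -0.043 to 0.43 for DN1122_c0_g1_i2 and -0.0049 to 0.12 for DN10807_c0_g1_i1. The cause of these changes was not tested. In the remaining comparisons of a named value with an alternative, 875 in number, direction and call were kept or the value moved by less than the spread between replicates.

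Limits apply to all values. FPKM without read counts leaves the depth uncertain, so no counting interval is given. With 3 libraries a group, the exact permutation test cannot go below 0.1. Isoform values rest on how shared fragments were divided, and annotation words chose the members.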
